A study of Mus musculus with 6 samples.

Results

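The TENT5 polymerases, the poly(A)-binding proteins and the proteins that bind them were followed as 10 named genes among the 56747 genes of a mouse islet ribosome profiling (Ribo-seq) table. They are *Tent5a*, *Tent5b*, *Tent5c* and *Tent5d*, then *Pabpc1*, *Pabpc4* and *Pabpn1*, and the partners *Paip1*, *Paip2* and *Paip2b*. Each name was found once, and 8 of the 10 genes had enough counts to enter the test. The families were chosen from the high-over-low glucose comparison of these same libraries, after its results were known, so the values of this comparison are given for the 10 genes as a description, with no p.

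Primary islets of male C57BL/6J mice, 6 to 8 weeks old, were kept for 2 h in 25 mM glucose (high glucose, 3 libraries) or in 2.5 mM glucose (low glucose, 3 libraries). Both groups had an overnight recovery after isolation and a glucose-free pre-incubation, and both received cycloheximide at 100 µg/ml in the last 15 min, which fixes ribosomes on the mRNA. Each library was made from about 500 to 600 islets pooled from several mice, and the islets of each mouse were shared out between both glucose levels. Counts are of footprints, the mRNA fragments that ribosomes protect from RNase I, and they follow the amount of an mRNA as well as its ribosome load.

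The poly(A) tail is added to an mRNA in the nucleus and is shortened in the cytoplasm until the mRNA is degraded. Cytoplasmic poly(A)-binding proteins coat the tail and bind the initiation factor eIF4G at the cap, which favours translation, while PAIP1 assists this contact and PAIP2 and PAIP2B take the binding proteins off the tail. TENT5 proteins are non-canonical polymerases of the cytoplasm that lengthen tails again, and in mouse B cells and bone-forming cells their known substrates are mRNAs of secreted proteins. Beta cells are secretory cells that carry a large load of hormone mRNA.

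Library totals were 16322162 to 20692579 counts in high glucose and 9242549 to 12175699 in low glucose, and all totals differed. Libraries of the same group correlated at 0.881 to 0.896 (Spearman), least in the pairs with low-glucose replicate 1. Levels are CPM (counts scaled to library size) set by edgeR's TMM factors, log2FC is the fitted log2 fold change of high over low glucose, and called means an adjusted p under 0.05 in edgeR's quasi-likelihood test over 13100 genes. Beta cell markers were present in every library, with summed levels of 159592 to 174497 CPM in high glucose and 130927 to 146893 CPM in low glucose. Of 12 acinar cell markers 11 were lower in high glucose, where their sum was 312.5 to 333.6 CPM, against 718.4 to 796.4 CPM in low glucose, and none of these markers was at 0 in all libraries. Summed markers were also lower in high glucose, with no overlap between the groups, for alpha cells (0.806 times the low-glucose mean, 4 of 5 markers called lower). So were those of delta cells (0.753, 2 of 3), endothelial cells (0.764, 2 of 5), mesenchymal cells (0.712, 2 of 5) and immune cells (0.636, 1 of 5). None of these markers was called higher. Sums were higher, again with no overlap, for beta cells (1.19, 3 of 6 markers called higher and 2 lower) and duct cells (1.18, 2 of 4 tested called higher). The part of these shifts in the members' values was not tested. In whole islets, fewer cells of a type and fewer footprints per cell cannot be told apart.

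Among the 8 genes tested, 4 were called higher in high glucose, namely *Tent5a*, *Tent5c*, *Pabpc1* and *Pabpc4*. None was called lower, and *Pabpn1*, *Paip1*, *Paip2* and *Paip2b* were not called. Over all genes tested, 12.1% were called higher and 10.2% lower. In the same 4 genes every high-glucose library lay above every low-glucose library, an arrangement that 19.5% of all genes showed, and in 1 gene, *Paip2b*, every high-glucose library lay below every low-glucose library, as in 18.0% of all genes. The median log2FC of the 8 genes was 0.71, against -0.01 over all genes tested. Since the genes were chosen on this comparison, nothing is read from these counts.

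**Figure D1:**
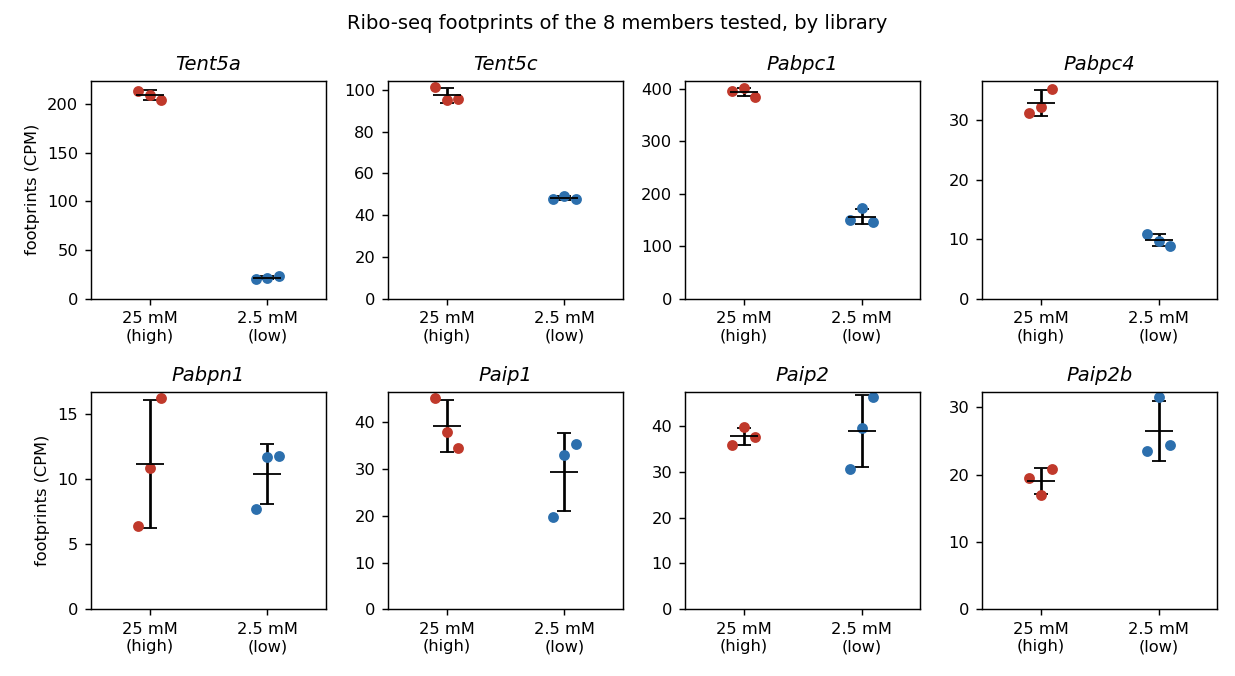
Footprints (CPM, linear axis from 0) of the 8 members tested, 1 panel each, with a point for each library, 3 in 25 mM glucose on the left and 3 in 2.5 mM glucose on the right. Bars are mean ± SD. The groups lie apart in *Tent5a*, *Tent5c*, *Pabpc1*, *Pabpc4* and *Paip2b* and overlap in the other 3 panels.

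*Tent5a* (ENSMUSG00000032265, chromosome 9), a cytoplasmic poly(A) polymerase, had 213.9, 209.1 and 203.7 CPM in high glucose, against 20.7, 20.8 and 23.1 CPM in low glucose. The counts behind them were 3442, 3487 and 4125 in high glucose and 195, 243 and 284 in low glucose. The groups were far apart, and the lowest high-glucose library was 8.83 times the highest low-glucose library. The means were 208.9 ± 5.09 CPM in high and 21.5 ± 1.34 CPM in low glucose (SD, n = 3 each), a ratio of 9.71 and a log2FC of 3.28 (SE 0.09). By log2FC *Tent5a* stood at rank 15 of the 13100 genes.

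*Tent5c* (ENSMUSG00000044468, chromosome 3), the relative of *Tent5a* known from plasma cells, had 101.5, 95.1 and 95.5 CPM in high glucose, against 47.9, 49.2 and 47.6 CPM in low glucose. The libraries of each group lay close together, and no value of one group reached the other. The means were 97.4 ± 3.58 CPM in high and 48.2 ± 0.860 CPM in low glucose (SD, n = 3 each), a log2FC of 1.01 (SE 0.10) and rank 438.

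The order of both polymerases differed between the glucose levels. Per kilobase of gene length, *Tent5a* footprints were 2.25, 2.35 and 2.28 times those of *Tent5c* in the high-glucose libraries, against 0.461, 0.453 and 0.518 times in the low-glucose libraries. *Tent5a* thus had more footprints per kilobase than *Tent5c* in every high-glucose library and fewer in every low-glucose library. Of the footprints per kilobase of both genes together, *Tent5a* held 69.6% ± 0.458 in high glucose and 32.3% ± 1.61 in low glucose (SD, n = 3 each). Because each ratio was formed within a library, library scaling has no part in it. Both genes were chosen on this comparison, so the ratio is a description only.

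The other family members gave almost no footprints. *Tent5d* (ENSMUSG00000073007, chromosome X), known for its expression in testis, had 3, 0 and 12 counts in high glucose and 19, 1 and 12 in low glucose. It overlaps *2610002M06Rik* on the opposite strand, and the sources used here do not say whether counting used strand. *Tent5b* (ENSMUSG00000046694, chromosome 4) had 1, 0 and 1 counts in high glucose and 0, 0 and 5 in low glucose. Neither gene was tested, and the groups overlapped in both. A count of 0 allows up to 3 counts in a library, or 0.148 to 0.318 CPM over the libraries.

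The sequences before the start sites of *Tent5a* and *Tent5c* are shown because these are the 2 polymerases with enough footprints to be tested, and both were called higher. They are the 160 bases before the most upstream start in RefSeq (build GRCm38.p6), on the strand of the gene, at chr9:85327151-85327310 (minus strand) for *Tent5a* and chr3:100489193-100489352 (minus strand) for *Tent5c*. Capitals mark the GC box GGGCGG and the core TGACG of the cyclic AMP response element, each searched on both strands.
Tent5a: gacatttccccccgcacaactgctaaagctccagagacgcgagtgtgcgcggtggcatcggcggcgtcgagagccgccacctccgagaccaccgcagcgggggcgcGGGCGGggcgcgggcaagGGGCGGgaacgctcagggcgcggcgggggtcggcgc
Tent5c: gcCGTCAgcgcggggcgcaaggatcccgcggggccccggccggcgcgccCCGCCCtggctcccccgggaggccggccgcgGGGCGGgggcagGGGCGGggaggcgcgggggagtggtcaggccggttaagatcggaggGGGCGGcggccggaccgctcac
In the window of 300 bases around the start, 250 before and 50 after, *Tent5a* held 2 GC boxes, both in the printed bases, and *Tent5c* held 7, of which 4 are in them. A GC box occurs in 35.7% of the 32851 windows of this length in the table. The TGACG core was found once in *Tent5c* and not in *Tent5a*, with 20.8% of all windows holding one. The full element TGACGTCA, found in 1.79% of windows, was in none of the 8 members that the table lists. These matches describe letters only.

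*Pabpc1* (ENSMUSG00000022283, chromosome 15), the main cytoplasmic poly(A)-binding protein, had the most footprints per kilobase of gene length among the 10 genes at both glucose levels. Its level was 395.7, 401.5 and 385.8 CPM in high glucose, against 151.0, 173.3 and 145.7 CPM in low glucose. Every high-glucose library was at least 2.23 times every low-glucose library. The means were 394.3 ± 7.96 CPM in high and 156.7 ± 14.6 CPM in low glucose (SD, n = 3 each), a ratio of 2.52 and a log2FC of 1.33 (SE 0.07), at rank 202. Short reads can be shared with near copies of the gene. The processed pseudogene *Pabpc1l2b* had 492 to 621 counts in high and 213 to 304 in low glucose (log2FC = 0.47, SE 0.16, edgeR adjusted p = 0.0339), while *Pabpc1* had 6367 to 7811 counts in high and 1425 to 2021 in low glucose.

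*Pabpc4* (ENSMUSG00000011257, chromosome 4), a second cytoplasmic poly(A)-binding protein that is induced in activated human T cells, had 31.2, 32.3 and 35.3 CPM in high glucose, against 10.9, 9.78 and 8.86 CPM in low glucose. No value of one group came near the other. The means were 32.9 ± 2.13 CPM in high and 9.85 ± 1.03 CPM in low glucose (SD, n = 3 each), a ratio of 3.34 and a log2FC of 1.75 (SE 0.18), at rank 91. The opposite-strand pseudogene *Gm12900* inside it had 24 to 69 counts in high and 13 to 20 in low glucose, whereas *Pabpc4* had 502 to 715 in high and 103 to 114 in low glucose.

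Per kilobase, *Pabpc1* remained well above *Pabpc4* in all libraries, by 7.81, 7.65 and 6.73 times in high glucose and by 8.52, 10.9 and 10.1 times in low glucose. The ratio averaged 7.40 ± 0.585 in high and 9.86 ± 1.22 in low glucose (SD, n = 3 each), and its high-glucose values all lay below its low-glucose values.

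*Pabpn1* (ENSMUSG00000022194, chromosome 14), the nuclear poly(A)-binding protein, which helps the canonical polymerase to build the tail, varied widely within both groups. It had 6.40, 10.9 and 16.2 CPM in high glucose, against 7.74, 11.7 and 11.8 CPM in low glucose. The groups overlapped, the coefficient of variation was 44.1% in high and 22.3% in low glucose, and the log2FC was 0.10 (SE 0.29). Without high-glucose replicate 3 the log2FC was -0.27, and without high-glucose replicate 1 it was 0.38.

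None of the 3 genes for PABP-interacting proteins was called. *Paip1* (ENSMUSG00000025451, chromosome 13), the stimulating partner, had 45.2, 37.8 and 34.5 CPM in high glucose, against 19.8, 33.0 and 35.3 CPM in low glucose. The groups overlapped, since the highest low-glucose library lay above the lowest high-glucose library. The means were 39.2 ± 5.51 CPM in high and 29.4 ± 8.34 CPM in low glucose (SD, n = 3 each), and the log2FC was 0.41 (SE 0.18). Low-glucose replicate 1 was the lowest library, and without it the log2FC was 0.19.

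*Paip2* (ENSMUSG00000037058, chromosome 18), the inhibitor that displaces PABPC1 from the tail, had 35.9, 39.6 and 37.5 CPM in high glucose, against 30.5, 39.5 and 46.1 CPM in low glucose. The high-glucose values lay inside the low-glucose range. The means were 37.7 ± 1.89 CPM in high and 38.7 ± 7.84 CPM in low glucose (SD, n = 3 each), and the log2FC was -0.04 (SE 0.15).

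*Paip2b* (ENSMUSG00000045896, chromosome 6), a second inhibitor of the same kind, had 19.5, 17.0 and 20.8 CPM in high glucose, against 23.4, 31.6 and 24.5 CPM in low glucose. All high-glucose values were below all low-glucose values, with a gap between the groups that was smaller than the range from lowest to highest value inside either. The means were 19.1 ± 1.91 CPM in high and 26.5 ± 4.43 CPM in low glucose (SD, n = 3 each), a log2FC of -0.47 (SE 0.18) that did not reach the call. It was called lower with DESeq2, with upper-quartile factors, with library totals, with at least 10 counts asked of every library and without low-glucose replicate 1.

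The first bases of the transcripts are shown because *Pabpc1*, like the mRNAs of ribosomal proteins and elongation factors, is known for a 5′ terminal oligopyrimidine start, a C followed by a run of C and T. The printed 20 bases begin at the most upstream start in RefSeq (GRCm38.p6), and capitals mark such a run where the first base is a C with at least 4 pyrimidines after it. They lie at chr13:119428600-119428619 (plus strand) for *Paip1*, chr9:85327131-85327150 (minus strand) for *Tent5a* and chr3:100489173-100489192 (minus strand) for *Tent5c*.
Paip1: CTTTTCTCCggagggaccag
Tent5a: ggagaagtcgcgggccgctg
Tent5c: tcgccgcagctgtctagggg
Of the 8 members that the table lists, *Paip1* alone began with such a run, of 9 pyrimidines, at 1 of its 2 listed starts. *Tent5a*, *Tent5b*, *Tent5c*, *Tent5d*, *Pabpc4*, *Pabpn1* and *Paip2b* did not begin with one. Such a start occurs in 2.51% of the 32851 windows. *Pabpc1* and *Paip2* are named only.

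**Figure D2:**
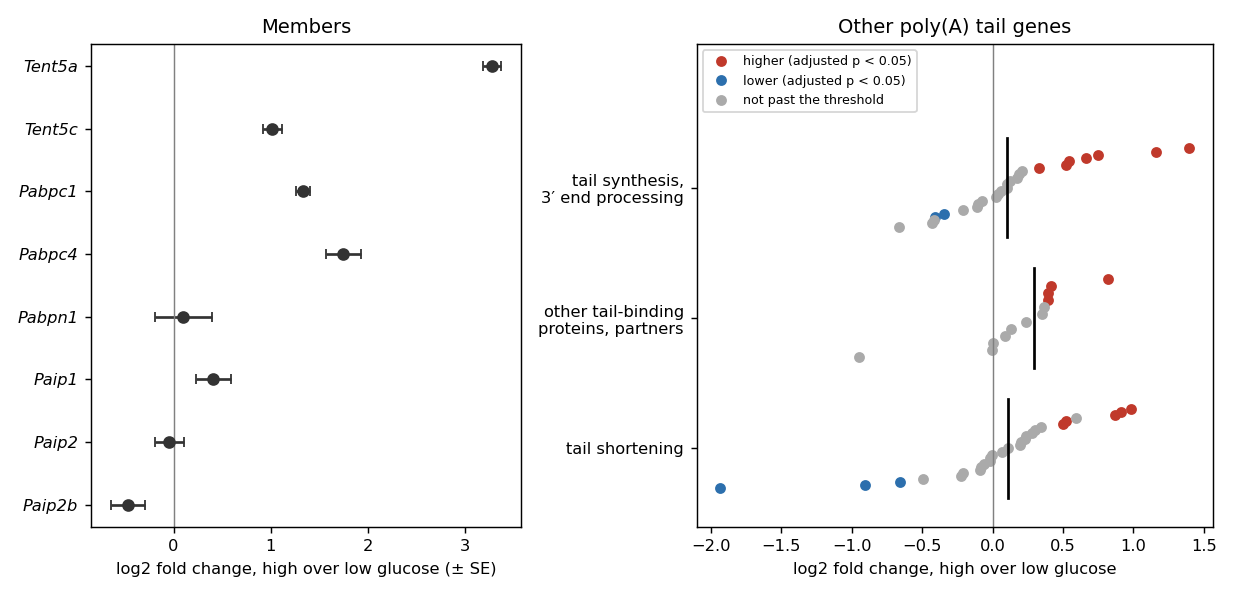
Left, log2 fold change (high over low glucose) of the 8 members tested, with SE. Right, the same for the other poly(A) tail genes tested, a point for each gene in order of its value, with a black line at the median of each group, coloured by the edgeR call. *Tent5a* (3.28) and *Pabpc4* (1.75) lie beyond every gene on the right, whose values run between those of *Btg1* (-1.94) and *Rbbp6* (1.40). The members were chosen on this comparison, so nothing is read from their place beyond the list.

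The binding proteins and their inhibitors were also set against each other within each library, so that scaling drops out. The sum of *Pabpc1* and *Pabpc4* footprints per kilobase was 5.17, 5.001 and 4.88 times that of *Paip2* and *Paip2b* in high glucose, against 2.09, 1.79 and 1.45 times in low glucose. The groups did not overlap, and the means of 5.02 ± 0.146 in high and 1.78 ± 0.323 in low glucose (SD, n = 3 each) differed 2.82-fold. Gene length may include untranslated exons, so the size of this ratio rests on the lengths used. The ratio of *Paip1* to *Paip2* was 1.29, 0.978 and 0.941 in high glucose and 0.665, 0.856 and 0.783 in low glucose, which also left the groups apart although neither gene's own level did.

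**Figure D3:**
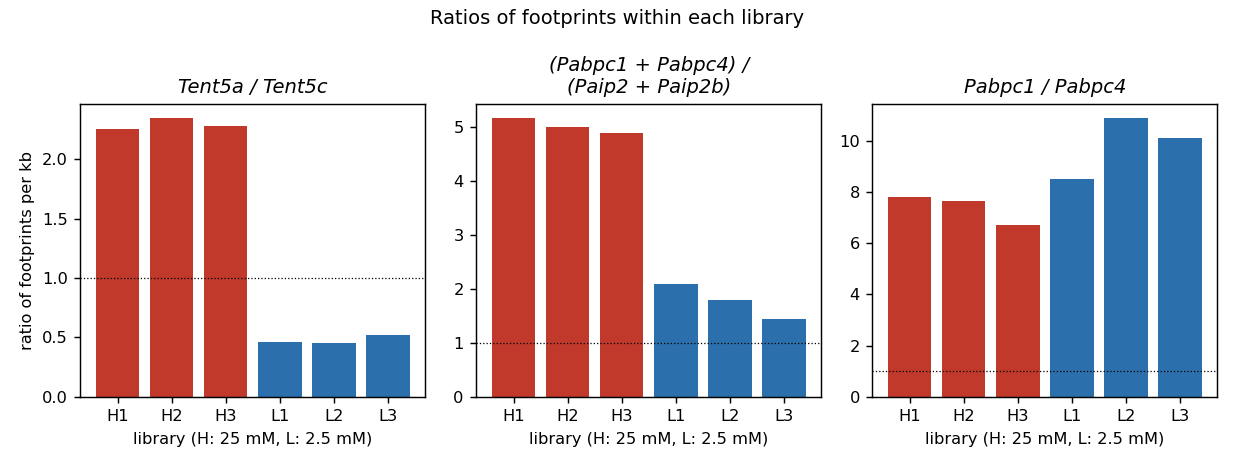
Ratios of footprints per kilobase within each library, for *Tent5a* over *Tent5c*, the sum of *Pabpc1* and *Pabpc4* over the sum of *Paip2* and *Paip2b*, and *Pabpc1* over *Pabpc4*. Each bar is 1 library, H1 to H3 in 25 mM and L1 to L3 in 2.5 mM glucose, and the dotted line marks a ratio of 1. With these lengths only the *Tent5a* over *Tent5c* ratio crosses it between the groups. Gene length may include untranslated exons, so where a ratio lies against 1 depends on the lengths used.

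Levels of different genes were compared per kilobase of the gene length in the deposited table. That length may include untranslated exons. The order of genes may therefore differ per codon, which was not run. In high glucose *Pabpc1* led with 60.3 ± 1.22 CPM per kilobase, followed by *Tent5a* with 36.6 ± 0.892 and *Tent5c* with 15.97 ± 0.587 (SD, n = 3). *Paip1* with 11.3 ± 1.59 and *Paip2* with 10.6 ± 0.535 came next and overlapped. *Pabpc4* followed with 8.18 ± 0.528 CPM per kilobase, and *Pabpn1* with 3.69 ± 1.62 and *Paip2b* with 3.01 ± 0.301 overlapped at the low end of the genes tested. In low glucose *Pabpc1* led as well, with 24.0 ± 2.24 CPM per kilobase, and its libraries did not overlap with those of the next gene. *Paip2* with 10.9 ± 2.21, *Paip1* with 8.50 ± 2.41 and *Tent5c* with 7.91 ± 0.141 followed, each overlapping with its neighbour. *Paip2b* with 4.18 ± 0.699, *Tent5a* with 3.77 ± 0.235, *Pabpn1* with 3.43 ± 0.766 and *Pabpc4* with 2.45 ± 0.256 CPM per kilobase closed the order, again each overlapping with the next. Per kilobase of gene length, *Tent5a* was thus second of the 8 genes in high glucose and within a group of low, overlapping levels in low glucose.

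The profiles most like those of *Tent5a* and *Pabpc1* were sought among 7771 genes that averaged 10 CPM or more, by the Euclidean distance between log2 CPM centred on each gene's mean over the 6 libraries. Both members were chosen on the difference between the glucose levels, which makes up most of their profiles. Near genes are therefore largely genes with a like difference, and the distances are a description only. For *Tent5a* the nearest was the processed pseudogene *Gm5822* (distance 0.734), whose reads may come from another gene. It was followed by *C2cd4a* (0.828), which had 30.9 ± 1.98 CPM in high and 4.72 ± 0.977 CPM in low glucose (SD, n = 3 each), and by *Lbh* (1.37), a transcription cofactor with 192.4 ± 13.6 CPM in high and 42.9 ± 6.50 CPM in low glucose. The median distance over all these genes was 3.98. For *Pabpc1* the nearest were *Rpl9* (0.152) and *Rps3a1* (0.210), which encode ribosomal proteins, and between them *Eef2* (0.174), the elongation factor that moves the ribosome along the mRNA, against a median of 1.64. *Eef2* had 1908 ± 15.95 CPM in high and 789.9 ± 35.8 CPM in low glucose (SD, n = 3 each), and *Rpl9* had 287.5 ± 12.8 CPM in high and 117.0 ± 9.36 CPM in low glucose.

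**Figure D4:**
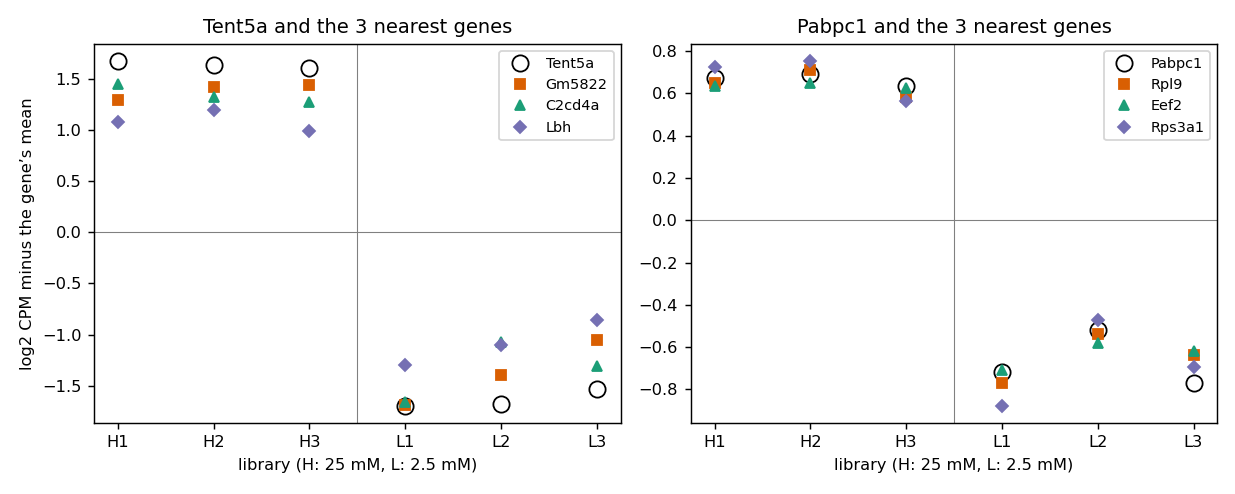
Log2 CPM minus the gene's own mean, by library (H1 to H3 in 25 mM, L1 to L3 in 2.5 mM glucose), for *Tent5a* and *Pabpc1* (open circles) with the 3 nearest genes of each. *Tent5a* has the widest step between the groups in its panel, while the 4 profiles of the *Pabpc1* panel have steps of similar size. Within low glucose they differ, as *Pabpc1* is lowest in L3 (-0.768). *Rpl9* (-0.770), *Eef2* (-0.710) and *Rps3a1* (-0.877) are lowest in L1.

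The other genes that make, bind or shorten poly(A) tails were taken from a list of 71, of which 70 had a row and 64 were tested. Of these, 16 were called higher (25.0%) and 5 lower (7.81%), 43 were not called, and the median log2FC was 0.12. Over all genes tested the shares were 12.1% higher and 10.2% lower, with a median of -0.01, and nothing particular to the list is read from its counts. Among 25 tested genes of tail synthesis and 3′ end processing, 7 were higher, 2 lower and 16 not called (median 0.11). *Rbbp6*, a cofactor of the cleavage machinery, had 35.0 ± 1.83 CPM in high and 13.3 ± 0.185 CPM in low glucose (SD, n = 3 each; edgeR adjusted p = 1.3e-06, with log2FC = 1.40 and SE 0.16). *Pcf11*, which links cleavage to the end of transcription, rose by 1.16 on the log2 scale (edgeR adjusted p = 2.08e-06, SE 0.14) and *Wdr33*, which reads the polyadenylation signal, by 0.75 (edgeR adjusted p = 5.23e-05, SE 0.12). *Cpsf3*, the endonuclease that cuts the mRNA, fell by 0.34 (edgeR adjusted p = 0.00836, SE 0.09, with an adjusted p of 0.0519 without low-glucose replicate 2). *Cstf2t*, a subunit of the cleavage stimulation factor, fell by 0.41 (edgeR adjusted p = 0.0293, SE 0.13). That call was lost in 4 of the 6 fits that left out 1 library (high-glucose replicates 2 and 3, low-glucose replicates 1 and 3; edgeR adjusted p 0.0524 to 0.151).

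Among 12 tested genes of other tail-binding proteins and PABPC partners, 4 were higher, 0 lower and 8 not called (median 0.30). *Atxn2l*, related to ataxin-2, rose by 0.40 on the log2 scale (edgeR adjusted p = 0.000234, SE 0.07), and *Larp4*, which binds both the tail and PABPC1, by 0.39 (edgeR adjusted p = 0.000755, SE 0.08).

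Among 27 tested genes of tail shortening, 5 were higher, 3 lower and 19 not called (median 0.11). *Btg1*, an adaptor that brings deadenylases to the tail, had 8.65 ± 0.893 CPM in high and 33.3 ± 14.5 CPM in low glucose (SD, n = 3 each; edgeR adjusted p = 2.97e-06, with log2FC = -1.94 and SE 0.24). The related *Btg3* fell by 0.91 (edgeR adjusted p = 0.00116, SE 0.19), and the deadenylase *Cnot8* fell by 0.66 (edgeR adjusted p = 0.015, SE 0.19). The *Cnot8* call was lost without high-glucose replicate 1, high-glucose replicate 2 or low-glucose replicate 2 (edgeR adjusted p 0.0527 to 0.0665). In the other direction, *Tob1*, of the same adaptor family as *Btg1*, rose by 0.53 (edgeR adjusted p = 6.6e-05, SE 0.08), and *Pde12*, which removes tails in mitochondria, by 0.99 (edgeR adjusted p = 9.02e-05, SE 0.16). *Tnrc6c*, a microRNA effector that recruits deadenylases, rose by 0.91 (edgeR adjusted p = 0.0082, SE 0.24, with an adjusted p of 0.0561 without high-glucose replicate 2). Adaptors of 1 family were therefore called in both directions.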

How the data were processed

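Ribo-seq libraries of islets, 3 per glucose level, were grouped by their labels. The authors removed rRNA and tRNA reads with Bowtie, used TopHat2 (version 2.0.12) for mapping and, for counting, HTSeq (version 0.9.1), and the deposited values are whole, unscaled count values. The study itself compared groups with DESeq2 (version 1.14.1). The processing notes name mm10, but the positions in the table appear to be on another build. Which build they use was not settled, so none is printed.

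One row without a gene was left out. Genes were filtered with filterByExpr, scaled by TMM and tested with edgeR (version 4.0.16, quasi-likelihood) in R (version 4.3.3), with Benjamini-Hochberg adjustment over 13100 genes. SE is |log2FC| over the square root of F, and profiles used a prior count of 2. DESeq2 (version 1.42.0) was an alternative. Levels per kilobase used the table's gene length, which may include untranslated exons. Start-site sequences came from RefSeq (GRCm38.p6), where 8 of 10 members matched. Figures used Python (version 3.11.15), matplotlib (version 3.10.9) and numpy (version 2.4.6). Scripts were tested on simulated data.

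The members and lists were chosen with earlier results of these data known. The genes named are the 10 members, from each list up to 3 higher and 3 lower called genes (by adjusted p), and the 3 nearest profiles of *Tent5a* and *Pabpc1*. Beside these, *Ins2* and *Gcg* are named as the largest parts of their marker sums. The errors rest on 3 libraries per group, and bounds from counts cover counting error only. One gene that this rule names is not reported here, and RNA-seq is not analysed here.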

Additional observations from a re-analysis of the deposited data

How the results depend on the processing

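*Tent5a*, *Tent5c*, *Pabpc1* and *Pabpc4* were called higher under every alternative run, which were 9 changes of test, threshold, scaling, filter, depth or block and 6 fits that each left out 1 library. Over these, the log2FC ran from 3.23 to 3.33 for *Tent5a*, 0.96 to 1.03 for *Tent5c*, 1.28 to 1.42 for *Pabpc1*, 1.67 to 1.82 for *Pabpc4*, -0.27 to 0.38 for *Pabpn1*, 0.19 to 0.56 for *Paip1*, -0.19 to 0.10 for *Paip2* and -0.56 to -0.32 for *Paip2b*. The log2FC of *Tent5c* was 0.97 with upper-quartile factors and 0.96 with library totals. The count of members called lower was 1 (*Paip2b*) with DESeq2, upper-quartile factors, library totals or at least 10 counts in every library, and 0 to 1 when a library was left out. *Paip1* was called higher only with no low-count filter.

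With the study's kind of threshold, a fold over 1.5 with unadjusted p under 0.05, 8 genes of the poly(A) tail list were higher and 3 lower, while 865 of all genes were higher and 1124 lower, against 1579 higher and 1333 lower by adjusted p. The lower count of the list was 3 to 5 when a library was left out. The log2 ratio of PABPC to PAIP2 footprints was 1.37 to 1.63 when a library was left out. Replicate numbers were shared across the groups, but deviations of same-numbered libraries correlated at only 0.007 to 0.011, each best with its own number. With the replicate number as a block, 4 members were called higher and 0 lower, 16 list genes higher and 5 lower, and 1561 of all genes higher and 1308 lower, so no call of a member changed. Levels per codon were not run, since no protein lengths were used here. Depth limits *Tent5b* and *Tent5d*, and 3 libraries per group limit all errors.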
